A study of Homo sapiens with 6 samples.

Results

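The genes that sense unfolded protein in the endoplasmic reticulum and those that remove it from there were followed through 6 h of glucose deprivation in cells of HCT116, a line long established from a human colorectal carcinoma. The 10 genes were chosen by symbol and all 10 were found among the 14987 genes of the deposited expression table: the sensors ERN1, EIF2AK3 and ATF6, the transcription factor XBP1, and HERPUD1, SEL1L, SYVN1, EDEM1, DERL1 and DERL2 of endoplasmic-reticulum-associated degradation (ERAD). The choice was made with earlier results of these data known. All 10 were well above the filter on low values, with at least 174 reads in every library. The 6 libraries came from HCT116 cells of wild-type genotype (NC) and from HCT116 cells with YAP knocked down by the construct shYAP1 or the construct shYAP3, each grown with glucose or deprived of it for 6 h, with 1 library for each construct and medium. The study asked what YAP, the transcriptional coactivator restrained by the Hippo kinases, contributes to expression after glucose loss. The labels do not say whether the cells of a construct are 1 clone and name no separate cultures, and p-values therefore measure the spread between these libraries, which may be technical. NC cells have no replicate in either medium, so tests that involve them borrow the spread of the other libraries.

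Secretory and membrane proteins fold in the endoplasmic reticulum, where sugars are added to them, and a shortage of glucose is a classical trigger of misfolding there. The membrane kinase and nuclease IRE1 (gene ERN1) splices XBP1 mRNA into the form that encodes an active transcription factor, the kinase PERK (EIF2AK3) slows translation, and ATF6 is cut in the Golgi to release a transcription factor. ERAD recognises misfolded proteins with lectins such as EDEM1, pulls them through a membrane complex of SEL1L, the ubiquitin ligase HRD1 (SYVN1), HERPUD1 and the derlins DERL1 and DERL2, and hands them to the proteasome. The values are levels of polyadenylated RNA summed per gene, so that neither XBP1 splicing nor the cleavage or phosphorylation of a sensor was measured. The cells were sequenced in bulk, so that fewer cells of a kind and less RNA per cell cannot be told apart.

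ATF6 and spliced XBP1 are known to act on the endoplasmic reticulum stress elements, of which ERSE is CCAAT and CCACG with 9 bases of any kind between them and ERSE-II is ATTGG and CCACG with 1 base between them. RefSeq start regions (GRCh38.p14) were matched by symbol for 9 of the 10 genes, all but DERL1, and both strands of the 250 bases before each start were searched. ERSE was found in 1 of the 9 genes, XBP1, against 0.0740% of all 35116 regions of this length, and ERSE-II in 1, HERPUD1, against 0.0513%. Here and below a gene is counted once over all its regions, of which XBP1 has 2, whereas these shares count single regions. The stretches before the starts of HERPUD1 and XBP1 are shown because they carry these motifs, and those of SEL1L and EDEM1 because they carry only the half-sites, at other spacings. All 4 are written 5′ to 3′ on the strand of the gene and end before the first start that GENCODE v29 annotates. Capitals mark ERSE-II in HERPUD1, ERSE in XBP1, and in SEL1L and EDEM1 every CCAAT or CCACG half-site of either strand, which reads ATTGG or CGTGG where it lies on the opposite strand.
HERPUD1 (chr16:56931892-56932047, plus strand): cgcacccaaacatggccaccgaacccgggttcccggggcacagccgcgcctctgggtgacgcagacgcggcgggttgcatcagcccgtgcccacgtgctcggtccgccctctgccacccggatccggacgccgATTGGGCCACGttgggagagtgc
XBP1 (chr22:28800598-28800819, minus strand): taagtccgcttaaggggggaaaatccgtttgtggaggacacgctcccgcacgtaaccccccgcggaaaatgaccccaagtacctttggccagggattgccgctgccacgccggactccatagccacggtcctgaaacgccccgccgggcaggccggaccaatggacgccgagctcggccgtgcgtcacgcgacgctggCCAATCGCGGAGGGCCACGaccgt
SEL1L (chr14:81533862-81534103, minus strand): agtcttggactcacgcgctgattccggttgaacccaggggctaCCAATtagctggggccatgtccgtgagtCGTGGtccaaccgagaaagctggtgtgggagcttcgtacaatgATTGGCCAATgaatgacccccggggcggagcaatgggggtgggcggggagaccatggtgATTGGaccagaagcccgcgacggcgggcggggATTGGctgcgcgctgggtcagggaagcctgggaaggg
EDEM1 (chr3:5187457-5187645, plus strand): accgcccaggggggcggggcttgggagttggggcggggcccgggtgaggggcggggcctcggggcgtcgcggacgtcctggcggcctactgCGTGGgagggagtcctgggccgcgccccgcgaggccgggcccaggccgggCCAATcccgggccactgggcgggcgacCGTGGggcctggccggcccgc

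The ERSE-II of HERPUD1 lies from -117 to -107 and the ERSE of XBP1 from -52 to -34, counted from the RefSeq start. Alone, the half-site CCAAT is in 32.0% and CCACG in 33.5% of all such regions, and in 7 and 5 of the 9 genes, counting those inside the full motifs. A match describes letters in this window and is not a measured binding site, and its absence says nothing of elements elsewhere in the gene.

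The libraries held 16912634 to 22161075 listed reads, recovered from the deposited values, and 1 read was worth 0.0406 to 0.0693. Values of single libraries are given throughout in the order NC, shYAP1 and shYAP3. The knocked-down gene, YAP1, measured 188, 35.7 and 38.2 with glucose and 154, 20.3 and 18.2 without it. All 6 epithelial markers on the list were in the table, with a summed value of 3288 to 4560 in control medium and 5336 to 6307 after deprivation. Fibroblast markers (2 of 5 in the table, COL1A2, DCN and LUM not among them), leukocyte markers (4 of 6, without PTPRC and CD3E) and endothelial markers (2 of 4, without PECAM1 and CDH5) each took at most 0.00342% of the reads of a library. The leukocyte sum was also higher after deprivation (22.4 to 38.1, against 17.9 to 20.2). The fibroblast sum was lower (2.98 to 6.17, against 8.09 to 10.3), and the endothelial sum overlapped between the media (3.60 to 7.96, against 3.56 to 4.83). The part of these marker sums in the results was not tested. The shYAP3 deprived library stood apart: its median deviation from the gene mean, in log2, was 0.49 over the tenth of tested genes lowest in GC content and -0.17 over the tenth highest, against -0.33 to 0.02 and -0.02 to 0.11 in the other 5. By transcript length it was 0.44 over the tenth of tested genes with the shortest transcripts and -0.29 over the tenth with the longest, against -0.19 to 0.14 and -0.08 to 0.12 in the others.

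**Figure D1:**
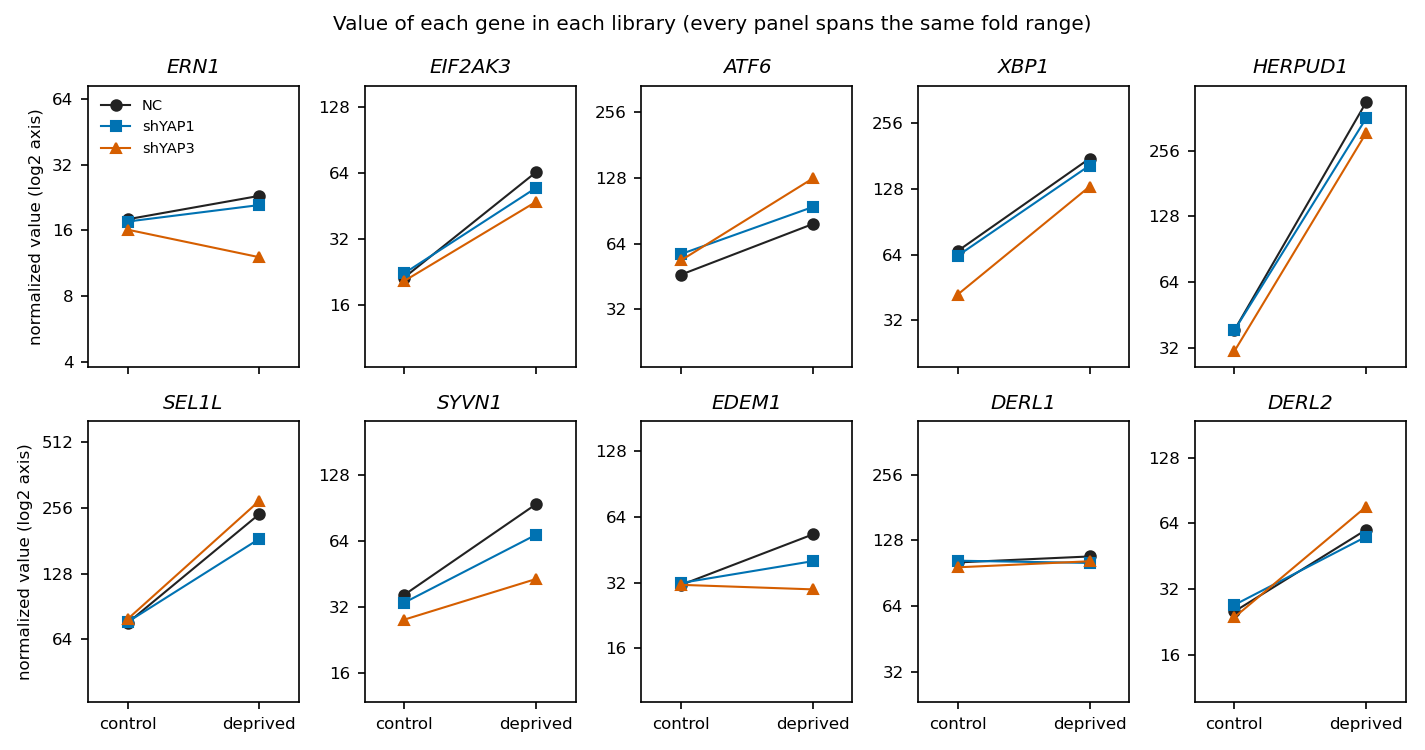
Normalized value (log2 axis) of each gene with glucose and after 6 h of deprivation, with 1 line per construct joining its 2 libraries. HERPUD1 lies at 30.9 to 38.6 with glucose and 309 to 428 without it, DERL1 lies between 96.4 and 108 in all 6 libraries, and the lines of ERN1 and EDEM1 slope down for shYAP3 and up for NC and shYAP1.

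After deprivation 7 of the 10 genes were higher and 0 lower, in a test of all 12263 genes that reached a value of 1 in at least 2 libraries, in which 16.5% were called higher and 15.6% lower (limma, adjusted p below 0.05). The 7 were HERPUD1, SEL1L, XBP1, EIF2AK3, DERL2, SYVN1 and ATF6, and for each of them all 3 deprived libraries lay above all 3 control libraries, as they did for 26.8% of the genes tested. ERN1, EDEM1 and DERL1 did not pass. The median change of the 10 genes was 1.14 on the log2(value + 1) scale, against 0.05 over all genes tested. Within single pairs of libraries, for which there is no test, 6 of the 10 genes were at least 2-fold higher in the NC pair, in the shYAP1 pair and in the shYAP3 pair, against 2.87%, 2.11% and 9.61% of the genes tested. The 5 genes with such a change in every pair were HERPUD1, SEL1L, XBP1, EIF2AK3 and DERL2. The share of all tested genes with such a change in every pair was not counted. It can be at most the 2.11% of the shYAP1 pair. Without the shYAP3 deprived library the 7 genes passed as well, with log2 changes of 3.39 for HERPUD1, 1.54 for XBP1, 1.42 for EIF2AK3, 1.41 for SEL1L, 1.23 for SYVN1, 1.15 for DERL2 and 0.76 for ATF6, and DERL1 stood at 0.05.

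**Figure D2:**
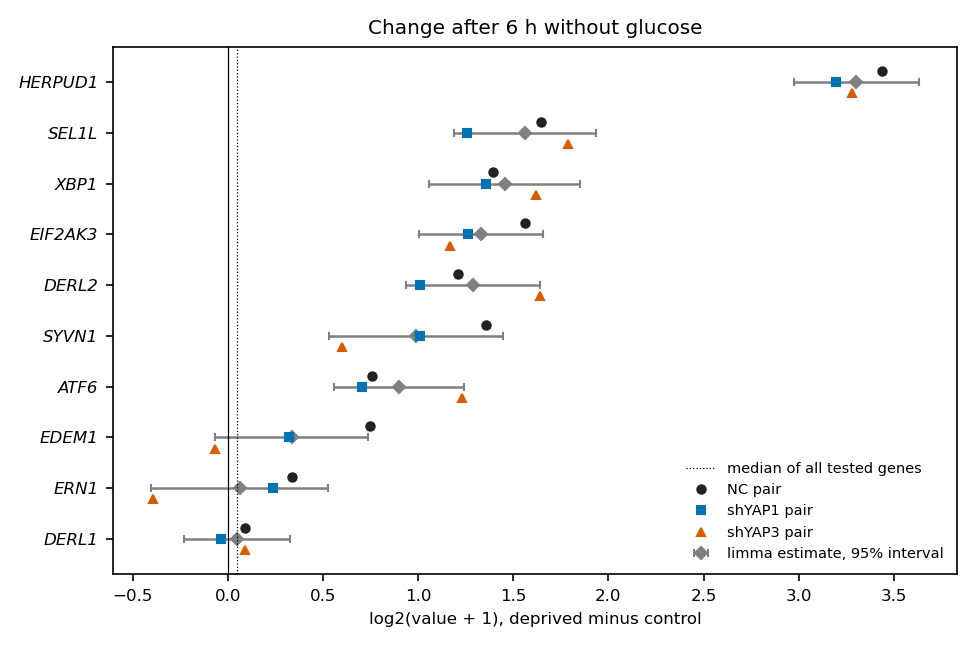
Change of each gene after 6 h without glucose, as the difference in log2(value + 1) between deprived and control medium, with 1 symbol per pair of libraries and the limma estimate with its 95% interval over all 6 libraries. The estimate of HERPUD1 is 3.30, those of SEL1L, XBP1, EIF2AK3, DERL2, SYVN1 and ATF6 lie from 0.90 to 1.56, and the intervals of EDEM1, ERN1 and DERL1 include 0.

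Of the sensors, EIF2AK3 (ENSG00000172071), the gene of PERK, measured 21.3, 22.3 and 20.5 with glucose and 64.7, 54.8 and 47.3 without it. The media did not overlap, and after deprivation both shYAP constructs were below NC. Fold changes here and below are those of the fit on log2(value + 1). The gene rose 2.51-fold, from a mean of 21.4 ± 0.870 to 55.6 ± 8.71 (SD, n = 3 libraries per medium), a log2 change of 1.33 (SE 0.14, limma adjusted p = 0.00077). ATF6 (ENSG00000118217) measured 46.1, 57.3 and 53.6 with glucose and 78.6, 94.1 and 127 without it. Here NC was the lowest library in both media. ATF6 rose 1.86-fold, from 52.3 ± 5.70 to 99.98 ± 24.8 (SD, n = 3), a log2 change of 0.90 (SE 0.15, limma adjusted p = 0.0044).

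ERN1 (ENSG00000178607), which encodes IRE1, measured 18.0, 17.6 and 16.1 with glucose and 23.0, 20.9 and 12.1 without it. The deprived NC and shYAP1 libraries were above every control library and the deprived shYAP3 library was below every one. Over the 6 libraries its log2 change was 0.06 (SE 0.21, 95% interval -0.40 to 0.53, limma adjusted p = 0.83). Without the shYAP3 deprived library ERN1 was higher after deprivation, with a log2 change of 0.32 (limma adjusted p = 0.041). It was also higher when the trends of each library in GC content and transcript length were removed, a setting added after the data were seen (log2 0.43, limma adjusted p = 0.027). The deprived shYAP3 library held 174 reads of ERN1, the fewest of any of the 10 genes in any library.

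XBP1 (ENSG00000100219) measured 66.6, 63.3 and 42.1 with glucose and 176, 164 and 131 without it. The shYAP3 library was the lowest in each medium and the media did not overlap. XBP1 rose 2.74-fold, from 57.3 ± 13.3 to 157 ± 23.3 (SD, n = 3), a log2 change of 1.46 (SE 0.18, limma adjusted p = 0.0012). The gain within a pair was 2.65-fold in NC, 2.59-fold in shYAP1 and 3.12-fold in shYAP3 cells. The share of its mRNA in the spliced form is not in these values.

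HERPUD1 (ENSG00000051108), a ubiquitin-like membrane protein that joins the HRD1 complex, had the largest change of the 10. It measured 38.6, 38.6 and 30.9 with glucose and 428, 361 and 309 without it. The lowest deprived library was far above the highest control library. The gene rose 9.87-fold, from 36.1 ± 4.42 to 366 ± 59.3 (SD, n = 3), a log2 change of 3.30 (SE 0.15, limma adjusted p = 7.8e-06), and the gains within pairs were 11.1-fold, 9.36-fold and 9.99-fold in the same order.

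SEL1L (ENSG00000071537), the scaffold that holds the ligase HRD1, measured 76.1, 76.9 and 79.2 with glucose and 240.1, 185 and 276 without it. The control libraries lay close together and well below the deprived libraries, of which shYAP3 was the highest. SEL1L rose 2.95-fold, from 77.4 ± 1.64 to 234 ± 45.9 (SD, n = 3), a log2 change of 1.56 (SE 0.17, limma adjusted p = 0.00066).

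SYVN1 (ENSG00000162298), which encodes HRD1 itself, measured 36.3, 33.4 and 27.9 with glucose and 94.4, 68.4 and 42.9 without it. NC was highest and shYAP3 lowest in both media, and the deprived shYAP3 library was only a little above the highest control library. SYVN1 rose 1.99-fold, from 32.6 ± 4.24 to 68.6 ± 25.8 (SD, n = 3), a log2 change of 0.99 (SE 0.20, limma adjusted p = 0.0086). It did not pass when either NC library was left out, where the fit reduces to shYAP cells (log2 0.81, limma adjusted p = 0.072 in both cases). In GENCODE v29 exons of SYVN1 overlap exons of FAU and MIR6751 on the same strand and of MRPL49 on the other. Reads near these overlaps are therefore uncertain in origin.

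The derlins, which form a channel for the exit of ERAD substrates, gave different values. DERL2 (ENSG00000072849) measured 25.3, 27.1 and 23.8 with glucose and 59.8, 55.6 and 76.3 without it. It rose 2.44-fold, from 25.4 ± 1.65 to 63.9 ± 10.96 (SD, n = 3), a log2 change of 1.29 (SE 0.16, limma adjusted p = 0.0012). DERL1 (ENSG00000136986) measured 101, 103 and 96.4 with glucose and 108, 101 and 103 without it, with the media overlapping. Its log2 change was 0.05 (SE 0.12, 95% interval -0.23 to 0.33, limma adjusted p = 0.78). The interval of DERL2, from 0.94 to 1.64, lies apart from that of DERL1, and in each of the 3 pairs the change of DERL2 was larger by more than 1 on the log2 scale, although genes were not tested against each other. In GENCODE v29 both derlins have exons that overlap a gene of the opposite strand, TBC1D31 for DERL1 and MIS12 for DERL2. Exons of DERL1, EIF2AK3 and EDEM1 also overlap antisense genes of the opposite strand. The strand setting of the counts is not given in the sources used here. DERL3, the remaining derlin, was below the filter, at 0 to 0.162 in all 6 libraries, around the value of 3 reads (0.122 to 0.208), which a count of 0 allows.

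EDEM1 (ENSG00000134109), a lectin-like factor that directs misfolded glycoproteins to ERAD, measured 31.2, 31.9 and 31.3 with glucose and 53.2, 40.1 and 29.8 without it. The control libraries were nearly equal, while the deprived libraries spread from below to above them. Its log2 change was 0.34 (SE 0.18, 95% interval -0.06 to 0.74, limma adjusted p = 0.17). EDEM1 was higher without the shYAP3 deprived library (log2 0.51, limma adjusted p = 0.0039) and after the GC content and length trends were taken out (0.46, limma adjusted p = 0.022). With ERN1 it brought the count of genes called higher to 9 of 10 in both settings, in which 23.5% and 17.8% of all genes were called higher. DERL1 was the gene that did not pass in either.

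EDEM1 has 2 relatives that also trim mannose from glycoproteins. EDEM3 measured 22.6, 26.1 and 24.2 with glucose and 13.6, 11.6 and 13.2 without it, and fell to 0.545 of its control level (log2 -0.88, SE 0.14, limma adjusted p = 0.0038). EDEM2 stood at 12.7 to 13.4 in control medium and 15.4 to 17.7 after deprivation, without overlap, and did not pass (log2 0.28, limma adjusted p = 0.14). HERPUD2, the paralog of HERPUD1, had a log2 change of -0.07 (limma adjusted p = 0.74), against 3.30 for HERPUD1, and ATF6B, the paralog of ATF6, one of 0.19 (limma adjusted p = 0.28). ERN2, the gut paralog of ERN1, was below the filter at 0 to 0.122.

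**Figure D3:**
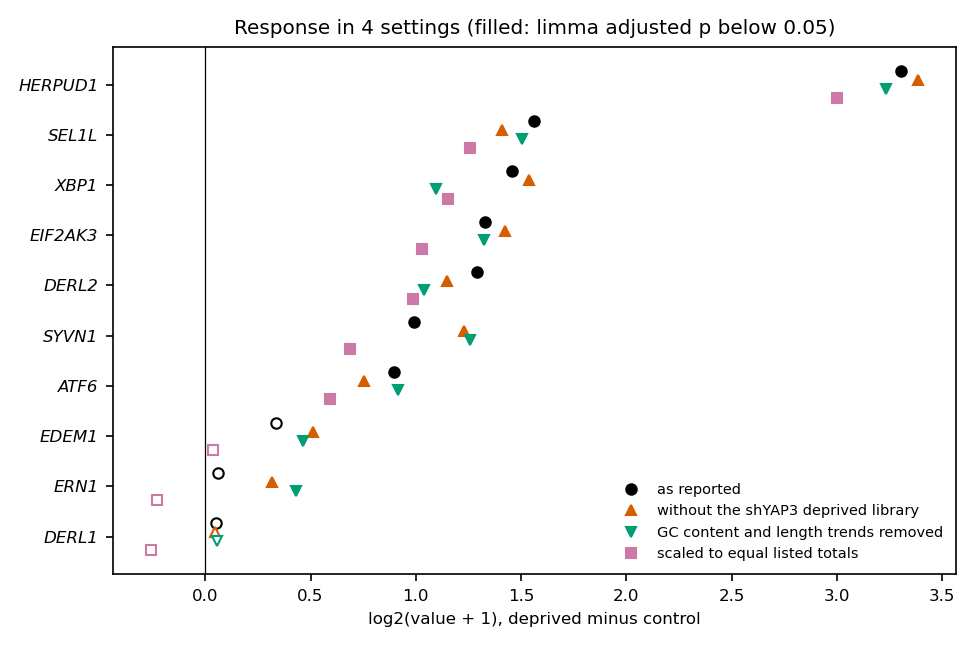
Change of each gene after 6 h without glucose, in log2(value + 1), as reported and in 3 other settings, with filled symbols where the limma adjusted p was below 0.05. ERN1 and EDEM1 are filled without the shYAP3 deprived library (0.32 and 0.51) and after removal of GC content and length trends (0.43 and 0.46) and open as reported, the 7 higher genes are filled in all 4 settings, and ERN1 and DERL1 lie below 0 when scaled to equal totals.

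The size of the change in the shYAP3 pair, relative to the other pairs, ran with the GC content of the longest transcript for 8 of the 10 genes, and the part of GC content or length in it was not tested beyond the setting given here. SEL1L, DERL2, ATF6 and XBP1, with 39.4% to 41.5% GC, had a larger change in shYAP3 than in either other pair, whereas EIF2AK3, EDEM1, ERN1 and SYVN1, with 44.4% to 56.3%, had a smaller one than in either. The longest transcripts measure 2173 to 7925 bases in the former 4 genes and 4547 to 7876 in the latter. HERPUD1 (47.9%) lay between the other pairs, and the 3 changes of DERL1 (43.1%) ranged only from -0.03 to 0.09. With GC content and length trends removed, the log2 changes of ERN1 in NC, shYAP1 and shYAP3 cells became 0.56, 0.48 and 0.24, from 0.34, 0.24 and -0.39, and those of EDEM1 became 0.78, 0.45 and 0.15, from 0.75, 0.32 and -0.07. Those of ATF6 became 0.67, 0.81 and 1.27, from 0.76, 0.71 and 1.23, and shYAP3 still had the largest change, as it did for SEL1L (1.47, 1.34 and 1.71) and DERL2 (0.97, 0.95 and 1.201). EIF2AK3 (1.52, 1.31 and 1.14) and SYVN1 (1.57, 1.14 and 1.06), like ERN1 and EDEM1, still had the smallest in shYAP3. XBP1 was the exception among the 8, turning from 1.39, 1.36 and 1.62 to 1.18, 1.19 and 0.92.

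Levels can be set between genes only per transcript length, here the deposited value per kilobase of the longest GENCODE v29 transcript, which need not be the form expressed. In control medium XBP1 had the highest level per kilobase (mean 26.4, range 19.4 to 30.7), followed by DERL1 (18.2), HERPUD1 (12.2), SEL1L (9.77), SYVN1 (7.16), ATF6 (6.98), DERL2 (6.02), EDEM1 (5.12), EIF2AK3 (4.60) and ERN1 (2.19, range 2.05 to 2.28). The ranges of SYVN1, ATF6 and DERL2 overlapped each other, and those of the other neighbours in this order did not. After deprivation HERPUD1 had the highest level per kilobase (124, range 105 to 145), above XBP1 (72.4, range 60.4 to 81.2) and SEL1L (29.5), and ERN1 still had the lowest (2.37, range 1.53 to 2.93). DERL1 (18.8), DERL2 (15.2), SYVN1 (15.1), ATF6 (13.3) and EIF2AK3 (12.0) came next to each other, DERL2 overlapping SYVN1, SYVN1 overlapping ATF6 and ATF6 overlapping EIF2AK3. The range of SYVN1 (9.44 to 20.8) also held those of DERL1 (18.3 to 19.6) and EIF2AK3 (10.2 to 13.9). DERL2 also overlapped ATF6 and EIF2AK3.

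The knockdown of YAP passed the test for 0 of the 10 genes when shYAP and NC cells were compared over both media, where 0.00815% of 12263 genes, YAP1 alone, was called (limma). After adjustment 0 of the 10 passed with edgeR and with DESeq2 too, and 2 were below an unadjusted p of 0.05 with each of the 3 tools. With limma these were SYVN1, whose values were below NC in both shYAP constructs in each medium (log2 -0.52, SE 0.21, limma adjusted p = 0.58), and ATF6, whose values were above NC in both (log2 0.37, SE 0.16, limma adjusted p = 0.58). The estimate of SYVN1 was -0.24 without the NC deprived library, -0.33 without shYAP3 deprived and -0.79 without NC control, and that of ATF6 was 0.26 without shYAP3 deprived. The other 8 estimates lay between -0.31 (XBP1) and 0.06 (DERL2). Intervals of 95% reached from -0.73 to 0.11 for XBP1 and from -0.60 to 0.09 for HERPUD1, so that moderate differences in either gene are within what these libraries allow.

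The response to deprivation was not shown to differ between shYAP and NC cells for any of the 10 genes, with 0 called and 0 below an unadjusted p of 0.05, where 0% of 12263 genes was called (limma, with 111 genes below an unadjusted p of 0.05, edgeR calling 0 and DESeq2 1 of all genes, none of the 10). The difference of responses was -0.20 for HERPUD1 (95% interval -0.98 to 0.59) and 0.10 for XBP1 (-0.88 to 1.07). The estimates furthest below 0 were those of EDEM1 (-0.62, 95% interval -1.45 to 0.20), SYVN1 (-0.55, -1.57 to 0.47) and ERN1 (-0.42, -1.51 to 0.68), each with a limma adjusted p = 1. These 3 were called lower when the shYAP1 deprived library was left out, so that shYAP3 alone stood for the deprived shYAP cells (log2 -0.83, -0.88 and -0.79, limma adjusted p = 0.00063, 0.00019 and 0.0050), and 9.88% of genes were then called lower. Without the shYAP3 deprived library the same differences were -0.41, -0.22 and -0.04 and none of the 3 passed (limma adjusted p = 0.36, 0.73 and 0.97).

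**Figure D4:**
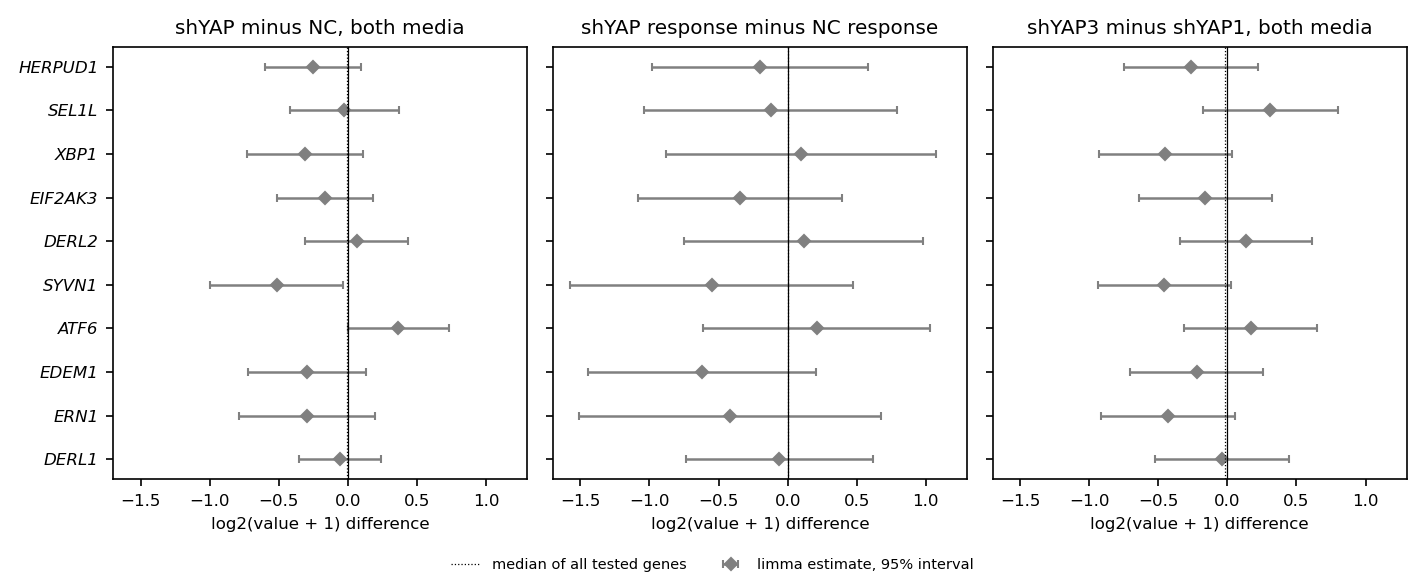
Differences in log2(value + 1), with limma estimates and 95% intervals, between shYAP and NC cells over both media (left), between their responses to deprivation (middle) and between the constructs shYAP3 and shYAP1 over both media (right). The intervals of SYVN1 (-0.52) and ATF6 (0.37) on the left lie wholly below and wholly above 0 before adjustment, and every interval in the other panels includes 0.

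The constructs were compared among the 4 shYAP libraries, where 0.107% of 12153 genes and 0 of the 10 were called in either direction (limma, with 0 of the 10 below an unadjusted p of 0.05 and 0 called by edgeR or DESeq2). The estimates furthest from 0 between shYAP3 and shYAP1 were in SYVN1 (log2 -0.46, limma adjusted p = 0.90) and XBP1 (-0.45, SE 0.25, limma adjusted p = 0.90). XBP1 was called lower in shYAP3 with GC content and length trends removed (-0.65, limma adjusted p = 0.0044), a setting in which 1.12% of genes were called.

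The response of neighbouring genes, in lists also chosen with earlier results of these data known, was counted in the same fit and in others. Called higher and lower were 6.09% and 31.1% of all genes with libraries scaled to equal listed totals, which moved the median of all genes from 0.05 to -0.24, and 14.8% and 17.6% with quantile normalization. Without single libraries these shares were 5.68% and 5.91% (NC control), 5.73% and 5.94% (NC deprived), 4.56% and 4.78% (shYAP1 control), 3.88% and 5.02% (shYAP3 control), and 23.5% and 19.9% (shYAP3 deprived). Without the shYAP1 deprived library 21.5% of all genes were called higher, and 2380 of 12213 genes were called lower. With GC content and length trends removed 17.8% were called higher, and 2309 of 12107 genes were called lower. The list counts below are to be read against these shares.

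Among other sensors, cofactors and outputs of the unfolded protein response 28 of the 31 listed genes passed the filter, and 13 of these were called higher and 1 lower by limma. Their median log2 change was 0.42 against 0.05 over all genes, and with libraries scaled to equal listed totals 7 were higher and 3 lower, with a median of 0.11. Without any 1 of the control libraries, or without NC deprived, 7 of the 28 were higher and 0 lower, and without shYAP3 deprived 16 and 1. With GC content and length trends removed 12 were higher and 1 lower, with a median of 0.23. The 5 with the smallest p were DDIT3, which encodes the stress transcription factor CHOP (49.2-fold), PPP1R15A, which restores translation after PERK acts (6.43-fold), the chaperone HSPA5 or BiP (6.26-fold), its cochaperone DNAJB9, which also holds IRE1 in check (6.38-fold), and the PERK inhibitor DNAJC3 (3.22-fold), all with a limma adjusted p of at most 0.00018. HSPA5 measured 788, 753 and 659 with glucose and 5464, 4158 and 4234 without it. DDIT3 measured 5.41, 6.78 and 4.77 with glucose and 284, 212 and 565 without it. Without the shYAP3 deprived library its log2 change was 5.20, against 5.62 in all libraries. Those of PPP1R15A, HSPA5, DNAJB9 and DNAJC3 were then 2.84, 2.66, 2.49 and 1.62, against 2.69, 2.65, 2.67 and 1.69. TRAF2, an adaptor of IRE1 and the gene that fell, had a log2 change of -0.68 (limma adjusted p = 0.0083) and is named because of that value. The proteases MBTPS1 (-0.12) and MBTPS2 (0.17), which cut ATF6, and RTCB (0.23), which joins spliced XBP1, did not pass in limma, and were picked for their roles after their values were seen.

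Of 50 other ERAD genes that passed the filter, 15 rose and 4 fell (limma), and their median of 0.23 became -0.07, with 4 rising and 10 falling, when libraries were scaled to equal listed totals. The 4 of 50 that rose in that setting are a share near that of all genes, and the 10 that fell a smaller share than that of all genes. SELK (now SELENOK), a selenoprotein of the derlin complex, rose 3.26-fold (limma adjusted p = 0.0021), with values of 30.2, 31.4 and 31.7 with glucose and 69.3, 93.0 and 172 without it, and a log2 change of 1.70 that was 1.38, still called, without the shYAP3 deprived library. UBE2J1, a ubiquitin-conjugating enzyme that works with HRD1, rose 1.75-fold (limma adjusted p = 0.0059). UBE2G2, a conjugating enzyme of another branch of ERAD (log2 -0.86, limma adjusted p = 0.0026), the membrane ubiquitin ligase RNF145 (-0.85, adjusted p = 0.0037), EDEM3 and NPLOC4, a cofactor of the extracting ATPase VCP (-0.49, adjusted p = 0.028), were the 4 that fell. VCP itself, named after its value was seen, had a log2 change of -0.19 (limma adjusted p = 0.26). Without the shYAP3 control library 3 of the 50 rose and 3 fell, without the shYAP1 control library 4 and 3, without either NC library 6 and 3, and without shYAP3 deprived 18 and 6. With quantile normalization 11 rose and 5 fell, with a median of 0.13. With GC content and length trends removed 12 rose and 6 fell, with a median of 0.10. The 6 of 50 that fell are a smaller share than the 2309 of 12107 genes called lower in that setting.

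Of 41 genes of protein entry into and exit from the endoplasmic reticulum, 17 rose and 1, SEC24C (log2 -0.53, named after its value was seen), fell (limma), with a median of 0.33, which was 0.02 with 5 rising and 4 falling when scaled to equal listed totals. SEC24D, a cargo adaptor of COPII vesicles, rose 2.02-fold and the translocation proteins TRAM1 and SEC62 rose 1.86-fold and 1.88-fold, with SSR4 (log2 0.78) and SEC63 (0.74) also among the 5 with the smallest p (limma adjusted p of at most 0.012). Without the shYAP3 deprived library the log2 changes were 1.15 for SEC24D (1.01 in all libraries), 0.75 for TRAM1 (0.89) and 0.68 for SEC62 (0.91). Those of SSR4 and SEC63 were then 0.66 and 0.61. SEC61A1, the pore of the translocon and also named after its value was seen, had a log2 change of 0.04 (limma adjusted p = 0.82). Without the shYAP3 control library 2 of the 41 rose, without the shYAP1 control library 5, without either NC library 4, with quantile normalization 10 and without shYAP3 deprived 21. The 2 of 41 without the shYAP3 control library are a share near that of all genes in that setting. With GC content and length trends removed 16 rose and 3 fell, with a median of 0.17. The 10 sensor and ERAD genes had 7 higher and 0 lower, with medians of 0.84 and 1.09, when scaled to equal totals and with quantile normalization.

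Of the 29 tested genes whose start region held ERSE or ERSE-II, 18 rose and 0 fell, with a median log2 change of 0.60, against 16.7% rising and a median of 0.05 among the 9276 tested genes with a start region. This count was made after the data were seen and is given as a description. In order of size the risers were HERPUD1, HSPA5, SDF2L1 (log2 1.496), XBP1, FICD (1.43), HSP90B1 (1.42), HYOU1 (1.31), ZNF143 (1.23), CALR (1.11), CRELD2 (0.98), EIF2A (0.92), PDIA6 (0.81), SERP1 (0.65), CANX (0.61), RAD9A (0.60), ZNF17 (0.55), PLS3 (0.54) and NUCB1 (0.49). When scaled to equal totals 12 rose and 1 fell, without the shYAP3 control library 11 rose and 0 fell, and without the shYAP1 control or either NC library 12 and 0, and without shYAP3 deprived 19 and 0. Without the shYAP1 deprived library 20 of the 29 rose and 2 fell. HSPA5, SDF2L1, HERPUD1 and XBP1 are also counted above. SEL1L, EIF2AK3, DERL2, SYVN1 and ATF6 rose without either motif in this window.

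**Figure D5:**
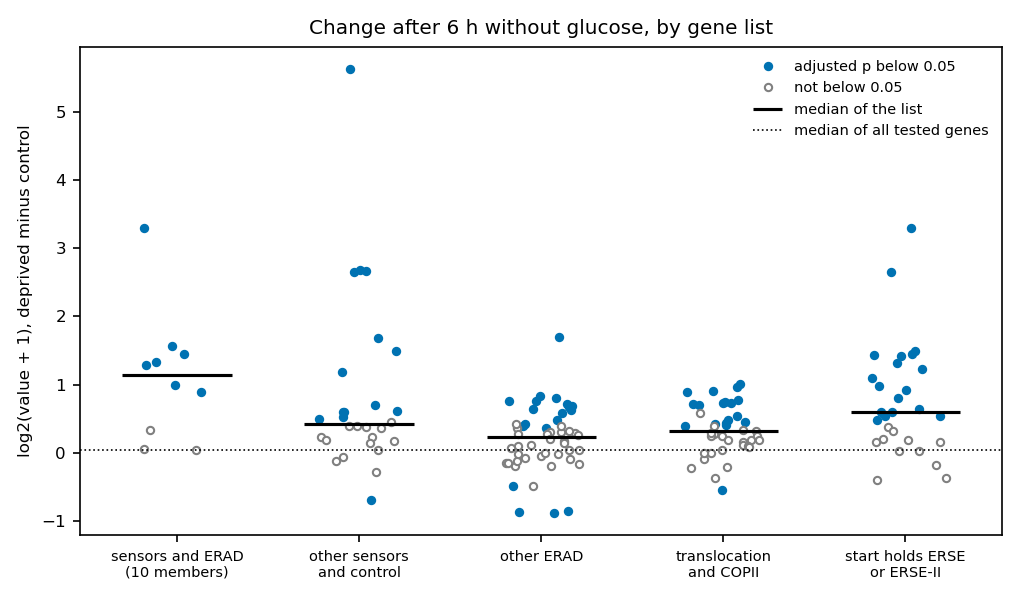
Change after 6 h without glucose in log2(value + 1) for each tested gene of 5 lists, with filled points where the limma adjusted p was below 0.05, a bar at the median of each list and a dotted line at the median of all tested genes (0.05). The medians are 1.14 for the 10 sensor and ERAD genes, 0.42, 0.23 and 0.33 for the 3 lists of neighbouring genes and 0.60 for genes whose start holds ERSE or ERSE-II.

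Likeness between genes was measured as the Euclidean distance between profiles of log2(value + 1) over the 6 libraries, centred on the mean of each gene, among 9207 other tested genes with a mean of at least 10, and is a description over libraries that share depth and composition. Among the 10 genes the nearest pairs were SEL1L and DERL2 (0.42), ERN1 and EDEM1 (0.43) and EIF2AK3 and XBP1 (0.48), and HERPUD1 and DERL1 were the furthest apart (3.999). The profile nearest to HERPUD1 was that of DUSP5 (0.23), followed by SESN2 (0.40) and CSRNP1 (0.63). Nearest to SEL1L were SDF2L1 (0.26), TNFRSF12A (0.30) and ULBP1 (0.31), and to DERL2 PDIA4 (0.17), ATG12 (0.20) and CHMP4C (0.23). Nearest to XBP1 were CEBPB (0.26), KLF4 (0.30) and CLCF1 (0.30), and to SYVN1 IRS2 (0.24), SLC20A1 (0.26) and PDGFB (0.29). Of the sensors, EIF2AK3 had FERMT2 (0.18), SLC38A2 (0.23) and ERRFI1 (0.24), ATF6 had POC5 (0.13), RAB5A (0.14) and RBM18 (0.16), and ERN1 had MED15 (0.060), ASAP2 (0.085) and SSH1 (0.11). EDEM1 had LATS1 (0.14), C6orf132 (0.15) and HK2 (0.17), and DERL1 had TMEM87B (0.068), TRIM37 (0.068) and TBRG1 (0.069).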

How the data were processed

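RNA sequencing of 6 HCT116 libraries was used. Per the labels' protocols, polyadenylated RNA was fragmented and made into Illumina libraries, and the submitters' processing notes name Bowtie2 and BWA and the build hg19, without role or version. A strand setting, a counter and an annotation are not given in the sources used here. What the authors deposited is 1 signal per gene and library, normalized in a way not given in the sources used here. Divided by what 1 read is worth in its library, 100% of the values came out whole within 0.01.

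All 10 genes and the 3 lists of neighbouring genes were chosen with earlier results of these data known. A trended limma model (limma 3.58.1, R 4.3.3) was fitted to log2(value + 1) of the genes at 1 or more in at least 2 libraries, p-values were adjusted by Benjamini-Hochberg over all of them and called at 0.05, and fold changes on this scale understate those of low genes. The response and the knockdown came from a model of genotype and medium, the difference of responses from a mean for each combination of these, and the constructs from construct and medium in the shYAP libraries. The code was tested on simulated data. The alternatives were quantile normalization, equal listed totals, no filter, a pseudocount of 0.1, no trend, edgeR 4.0.16 and DESeq2 1.42.0 on recovered reads, a replicate block, leaving out each library and, added after the data were seen, removal by loess of GC content and length trends.

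By rule the text names the 10 genes, their paralogs, the 5 of each list with the smallest p and, for likeness, the 3 nearest profiles. TRAF2, MBTPS1, MBTPS2, RTCB, NPLOC4, VCP, SEC24C, SEC61A1 and the risers with ERSE or ERSE-II are outside it and were named after their values were seen. A number shared between media marks the same construct, and deviations of same-numbered shYAP libraries from their group means correlated at r = 0.10 across 12263 genes. Start regions are from RefSeq (GRCh38.p14), and lengths and GC content from GENCODE v29, both another build than hg19. Intervals and the 3-read floor cover counting or library spread only.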

Additional observations from a re-analysis of the deposited data

How the results depend on the processing

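The 7 genes that rose did so in all 9 settings other than leaving out a library, and HERPUD1, SEL1L, XBP1, EIF2AK3, DERL2 and ATF6 also without each library in turn. With the construct as a replicate block 7 of the 10 genes were called, the same count as without it, and no call among the 10 changed. The 10 genes had at least 174 reads in each library, and there is 1 library per construct and medium. The cause of the following changes was not tested.

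Of the other ERAD list 6 to 24 genes were called without single libraries (19 in all 6), of other sensors 7 to 17 (14) and of translocation and COPII 2 to 22 (18), while the share of all genes called ran from 8.90% to 43.4%, the lowest without shYAP3 control and the highest without shYAP3 deprived. Of translocation and COPII genes 11 were called with quantile normalization and 9 with equal totals, where 32.5% and 37.1% of all genes were. Of the 10 genes 0 to 3 were called in the difference of responses without single libraries, and 1 between constructs with GC content and length trends removed.

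Some signs turned. In the response they did for DERL1 with quantile normalization (-0.12) and equal totals (-0.26), and for ERN1 with equal totals (-0.23) and without single libraries (-0.11 to 0.32). In the knockdown they did for DERL2 with trends removed (-0.081), and without single libraries for EIF2AK3 (-0.34 to 0.0063), SEL1L (-0.14 to 0.11), EDEM1 (-0.61 to 0.015) and DERL2 (-0.041 to 0.15). In the difference of responses they did for XBP1 (-0.063) and DERL2 (-0.043) with equal totals, for XBP1 (-0.13), SEL1L (0.053) and DERL1 (0.033) with trends removed, and without single libraries for XBP1 (-0.19 to 0.39), SEL1L (-0.41 to 0.17), ATF6 (-0.0047 to 0.43) and DERL2 (-0.11 to 0.34). Between constructs DERL2 turned with trends removed (-0.0014). The constructs without a library, and the difference of responses without an NC library, could not be fitted.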
